A study of Mus musculus with 16 samples.

Results

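The effect of N1-acetylspermidine (N1-AcSpd) on ribosome footprints was measured by comparing 4 treated with 4 untreated ribosome footprinting (Ribo-seq) libraries, with both cell types in 1 fit. These 8 libraries belong to a series of 16, and the other 8 are RNA-seq libraries made from the same lysates. Hair follicle stem cell organoids (3D–3C cultures) of C57BL/6J mice were grown for 2 weeks, and the treated cultures received N1-AcSpd for the last 72 h. Cells were then sorted on integrin α6 and CD34 into α6+/CD34− progenitors (labelled CD34neg) and α6+/CD34+ HFSCs (labelled CD34pos). Each of the 4 Ribo-seq groups, CD34neg, CD34pos, CD34neg_N1AcSpd and CD34pos_N1AcSpd, held 2 libraries, 1 from each of the same 2 donor mice, called mouse 1 and mouse 2 after the replicate number. No transgene or genetic alteration is labelled, and the age of the mice is not given in the labels. For each gene the transcript with the most footprints was kept, and genes were tested where these averaged 10 or more footprints per library over the 8 libraries, which left 2259 of 22579 genes. In sorted bulk populations, fewer cells of a type and less RNA per cell cannot be told apart.

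Footprints are the short mRNA pieces that a ribosome shields from nuclease, so their number on a gene follows both how much mRNA there is and how densely ribosomes sit on it. The paper's methods describe size selection of the fragments but no isolation of ribosomes. Whether the few mitochondrial fragments counted as footprints came from ribosomes was not tested. RNA-seq of the same lysate gives the mRNA level, and the ratio of both is the footprint-to-RNA ratio. N1-AcSpd is a product of spermidine/spermine N1-acetyltransferase, which marks polyamines for export or back-conversion. Polyamines bind RNA and ribosomes, and spermidine is the donor for hypusine, the modified amino acid that the elongation factor eIF5A needs. The mitochondrial genome encodes 13 subunits of the respiratory chain and ATP synthase, which are translated by separate ribosomes inside the organelle, whereas all other respiratory chain subunits are made in the cytosol.

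Footprint depth was low and uneven. The Ribo-seq libraries held 34467 (untreated progenitors, mouse 1) to 267921 (untreated progenitors, mouse 2) footprints on the kept transcripts, and the RNA-seq libraries 21601141 to 31505435 counts. The labels were met by the markers: Cd34 had an RNA level of 67.4 to 90.1 CPM (counts scaled to library size) in the 4 HFSC libraries and 2.35 to 5.37 in the 4 progenitor libraries, and the basal keratins Krt5 and Krt14 were abundant in all. In RNA, the difference between the mice correlated across genes by 0.352 to 0.591 between 3 of the groups, but by −0.572 to −0.395 between these and the treated HFSCs. In that group the RNA libraries thus went against their mouse numbers. This bears on each value below that uses the number: the mouse as a block, a mouse left out, a ratio taken per lysate, and values named by mouse in treated HFSCs. In footprints the mouse differences correlated by only 0.024 to 0.113 between groups, too weakly to show whether the numbers of treated HFSCs hold there. On simulated footprints of this depth, 25.5% of genes changed 2-fold and 94% of genes changed 4-fold were called. The simulation changed 200 of the 2259 genes and held no cell type difference, separate mouse effect or outlying library. With fewer changed genes the adjustment is stricter, so these rates are not the power of the real comparison.

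Of the 3 genes called below, 2 are mitochondrial, and the start of mitochondrial coding sequences is shown to locate them and to show what a footprint-sized read can tell apart. The first 60 bases follow for 4 genes with enough footprints to test, and for mt-Co2, which had none, beside its copy in the nuclear genome. Sequences are from GRCm38.p6 with GENCODE vM21 gene models, 5′ to 3′, and the start codon is in capitals.

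mt-Cytb, MT:14145-14204, plus strand: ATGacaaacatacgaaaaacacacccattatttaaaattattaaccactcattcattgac

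mt-Co1, MT:5328-5387, plus strand: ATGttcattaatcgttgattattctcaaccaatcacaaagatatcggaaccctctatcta

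mt-Nd6, MT:14011-14070, minus strand: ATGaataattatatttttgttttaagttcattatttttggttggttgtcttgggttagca

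mt-Nd5, MT:11742-11801, plus strand: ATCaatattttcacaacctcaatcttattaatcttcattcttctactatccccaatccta

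mt-Co2, MT:7013-7072, plus strand: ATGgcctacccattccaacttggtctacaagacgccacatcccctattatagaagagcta

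nuclear copy of mt-Co2, chr1:24615506-24615565, minus strand: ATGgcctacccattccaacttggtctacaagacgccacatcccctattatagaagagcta

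The mt-Co2 start and its chromosome 1 copy had 0 differences over these bases, so a read from one also matches the other. Over whole coding sequences, 0% of the 28-base words of mt-Co2, mt-Co3, mt-Atp6, mt-Atp8 and mt-Nd4l occurred only at the gene, and these 5 genes had 0 footprints in all 8 libraries. For mt-Nd3 the share was 0.935%. It was 33.3% for mt-Co1, which shares words mainly with chromosome 2, and 36.3% for mt-Nd4. In contrast, mt-Nd1 (100%), mt-Cytb (90.7%), mt-Nd6 (89.4%), mt-Nd2 (83.9%) and mt-Nd5 (80.4%) could mostly be told apart. How reads with several matches were counted is not given in the sources used here, so a count of 0 for the 5 genes cannot be read as a lack of translation. Their RNA was listed at only 3.42 to 45.0 CPM, compared with 26800 to 47300 CPM for mt-Co1.

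**Figure D1:**
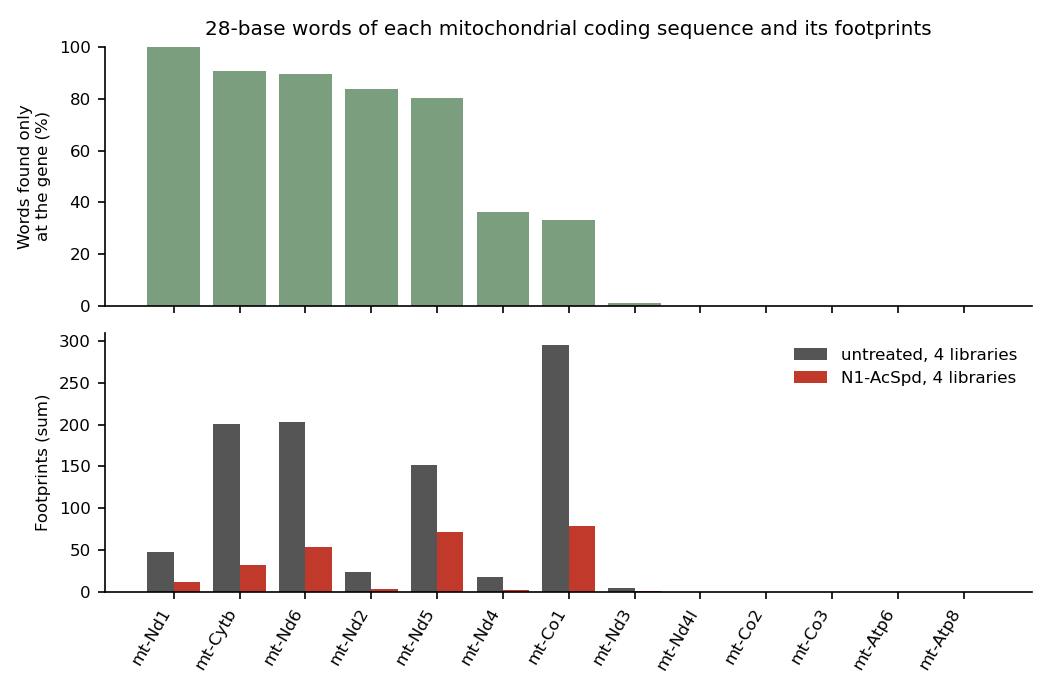
Share of the 28-base words of each mitochondrial coding sequence that occur only at the gene (top, percent) and footprints summed over the 4 untreated and the 4 N1-AcSpd libraries (bottom). The 5 genes with a share of 0% have no footprints, and the treated sums are below the untreated sums for the other 8 genes. The sums are raw counts, not scaled to the uneven depth of the libraries.

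N1-AcSpd-treated cells had fewer footprints on 2 mitochondrially encoded genes and on Ptk7, and no other change passed the test. Of the 2259 genes tested, 3 were called at an adjusted P below 0.05 in edgeR's quasi-likelihood test (0.133% of those tested), all lower upon treatment: mt-Cytb, mt-Co1 and Ptk7. None was called higher. At an unadjusted P below 0.05 stood 160 genes (7.08%), of which 68 were higher (3.01%) and 92 lower (4.07%), and the median change of all genes was −0.01 on the log2 scale. Leaving out 1 of the libraries moved the count of calls between 0 and 12: no gene was called without either treated progenitor library or without the untreated HFSC library of mouse 2, 12 were called without the untreated progenitor library of mouse 1, and 11 without the treated HFSC library of mouse 2. With the mouse as a block, 8 genes were called (0.354%), 7 lower (0.31%) and 1 higher (0.0443%), whereas DESeq2, and edgeR on counts summed over the transcripts of a gene, called 0 genes, with 123 and 165 at an unadjusted P below 0.05.

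mt-Cytb encodes cytochrome b, the mitochondrially made subunit of complex III. Untreated cells gave 73 and 56 footprints in progenitors of mouse 1 and 2 and 12 and 60 in HFSCs. Treated cells gave 7 and 1 in progenitors and 17 and 7 in HFSCs. As CPM of the footprints on the tested genes, with TMM factors, these are 2970, 268, 312 and 600 untreated against 110, 20.7, 143 and 153 treated. Every treated library thus lay below every untreated library, as was the case for 40 of the 2259 genes (1.77%) in this direction, and the untreated progenitor library of mouse 1 stood far above the rest. The fitted change was −2.82 ± 0.55 (log2, SE, n = 4 against 4), or 7.07-fold lower, with an adjusted P of 0.0233 by edgeR. With 201 untreated and 32 treated footprints, mt-Cytb reached the mean of 10 only through the untreated group. It was also called with a minimum mean of 1 (−2.66) and with none (−2.67), where that filter does not decide its entry. Without the untreated progenitor library of mouse 1 it was −1.77 (edgeR, adjusted P = 0.0135). The call was lost without either treated progenitor library (−2.62 and −2.39) or without the untreated HFSC library of mouse 2 (−2.92), and by DESeq2 (−3.08, adjusted P = 0.293) and limma voom (−2.12, adjusted P = 0.39).

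mt-Co1 encodes the core catalytic subunit of complex IV. It had 89 and 114 footprints in untreated progenitors, 24 and 68 in untreated HFSCs, 18 and 7 in treated progenitors and 42 and 11 in treated HFSCs. As CPM, the untreated libraries read 3620, 545, 625 and 680 and the treated ones 283, 145, 353 and 240. Again the groups did not overlap, and again the untreated progenitor library of mouse 1 was the highest. The change was −2.03 ± 0.42 (edgeR, adjusted P = 0.0340), and −1.16 without that library (adjusted P = 0.0515). Its call was also lost without any of the 3 libraries named for mt-Cytb (−1.87, −1.69 and −2.25), and by DESeq2 (−2.20) and limma voom (−1.74).

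mt-Nd6 and mt-Nd5 encode subunits of complex I. mt-Nd6, transcribed from the other strand than the remaining mitochondrial protein genes, had 935, 545, 208 and 580 CPM in untreated and 283, 20.7, 227 and 175 CPM in treated cells, in the order progenitors of mouse 1 and 2 and HFSCs of mouse 1 and 2. Treated values of 283 and 227 CPM exceeded the lowest untreated value of 208 CPM, so the groups overlapped. Its change was −1.52 ± 0.40 (edgeR, adjusted P = 0.106; 0.0282 with the mouse as a block), and −2.57 without mouse 1 and −0.89 without mouse 2. mt-Nd5 had 650, 397, 338 and 390 CPM untreated against 488, 310, 151 and 153 treated, with a change of −0.72 ± 0.34 (unadjusted P = 0.0402 by edgeR, adjusted P = 0.663). All 4 testable mitochondrial genes thus had a negative estimate, and 2 of 4 were called. This count is only a description and is not set against the share of all genes. mt-Cytb passed the count minimum only through the untreated group, and the list was chosen with earlier results known.

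The remaining mitochondrial genes were too rare to test. mt-Nd1 had 47 footprints over the untreated and 12 over the treated libraries, mt-Nd2 had 24 against 3, mt-Nd4 had 17 against 2 and mt-Nd3 had 4 against 1. In scaled values, mt-Nd1 had 488, 81.3, 104 and 140 CPM untreated against 31.5, 20.7, 42.0 and 87.4 CPM treated. Only the treated HFSCs of mouse 2 reached into the untreated range.

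**Figure D2:**
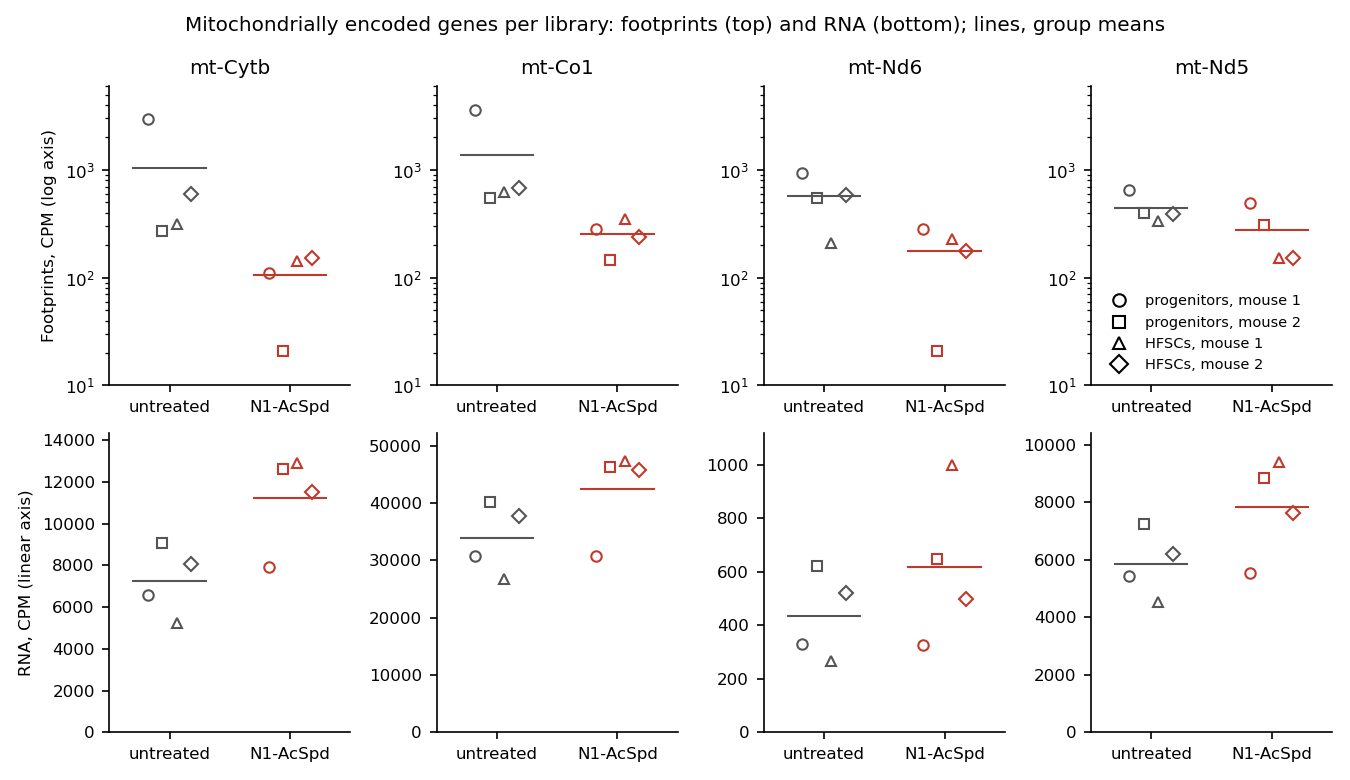
Footprints (top, CPM, log axis) and RNA (bottom, CPM, linear axis) of the 4 testable mitochondrial genes in each library, with group means as lines. For mt-Cytb and mt-Co1 the treated libraries lie below all untreated ones in footprints, while in RNA the treated means are higher, 11200 against 7240 CPM for mt-Cytb and 42500 against 33900 CPM for mt-Co1.

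The RNA of the same lysates showed no such drop. mt-Cytb RNA was 6590, 9070, 5240 and 8050 CPM in untreated and 7920, 12600, 12900 and 11500 CPM in treated cells, a change of 0.63 ± 0.20 (edgeR, adjusted P = 0.111). The treated progenitors of mouse 1 fell within the untreated range, and the other treated libraries lay above it. For mt-Co1 RNA the change was 0.32 ± 0.17 (edgeR, adjusted P = 0.329). All 13 mitochondrial genes had positive RNA estimates, with a median of 0.37, and 0 of 13 were called in either direction (with the mouse as a block mt-Nd1 was, at an adjusted P of 0.0373 by edgeR), compared with 4.04% of the 12242 genes tested in RNA. The footprint-to-RNA ratio, tested as the interaction of assay and treatment in edgeR, was −3.28 ± 0.81 for mt-Cytb (unadjusted P = 0.000696, adjusted P = 0.393), −2.22 ± 0.61 for mt-Co1 (adjusted P = 0.485), −1.93 ± 0.68 for mt-Nd6 and −1.04 ± 0.38 for mt-Nd5 (adjusted P = 0.694 for both). All 4 had an unadjusted P below 0.05 in the ratio, but none passed adjustment. Of all genes, 3.41% had such a P in this direction and 3.14% in the other. The count of 4 is a description too, since mt-Cytb entered the test only through the untreated group.

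Of the footprints on the kept transcripts, the share that fell on the 13 mitochondrial genes was 0.653% and 0.150% in untreated progenitors of mouse 1 and 2 and 0.120% and 0.188% in untreated HFSCs. In treated progenitors it was 0.0925% and 0.0407%, and in treated HFSCs 0.0751% and 0.0617%. The Wilson 95% intervals, which cover counting error only, reached 0.573% to 0.743% for the first library and 0.0278% to 0.0597% for the lowest. Every treated library was below every untreated library. The mean was 0.278% ± 0.251 untreated and 0.0675% ± 0.0218 treated (SD, n = 4 each), a difference of −0.21 percentage points, and the exact two-sided permutation test with treatment exchanged within cell type gave P = 0.0556, the smallest value that its 36 arrangements allow. The share is made up mostly of the counts on the 4 genes tested above, and the list was chosen with earlier results known. It is therefore no separate evidence. Without the untreated progenitor library of mouse 1 the difference was −0.0855 points, and as a share of the counts on all transcripts it was −0.0907 points. The RNA share ran the other way, 5.81% ± 1.04 untreated and 7.77% ± 1.42 treated (exact permutation P = 0.111).

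**Figure D3:**
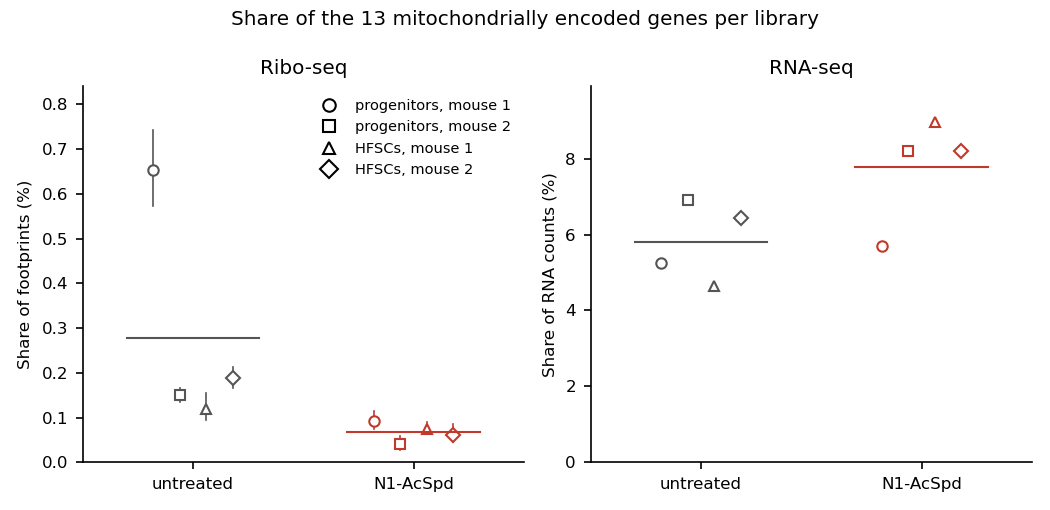
Share of footprints (left, percent, with Wilson 95% intervals) and of RNA counts (right, percent) on the 13 mitochondrially encoded genes, per library, with group means as lines. In footprints the treated libraries lie between 0.0407% and 0.0925% and the untreated ones between 0.120% and 0.653%, whereas the RNA shares overlap.

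For nuclear genes that serve mitochondria, 0 footprint changes were called. Estimates were positive for 31 and negative for 28 of the 59 nuclear subunits of oxidative phosphorylation in the fit (median 0.01), and 0 were called. Without mouse 1 this tally was 27 and 32 (median −0.05), and without mouse 2 it was 38 and 15 (median 0.19). Atp5b, the catalytic β subunit of ATP synthase, had 2920 to 3940 CPM untreated and 2320 to 3490 CPM treated (change −0.16 ± 0.19). The 16 testable mitochondrial ribosomal proteins had a median of 0.08 and the 5 testable genes of mitochondrial gene expression a median of 0.04, again with no call. These medians rested on both mice: without mouse 1 they were 0.07 and −0.60, and without mouse 2 they were 0.55 and 0.66, where all genes stayed at 0.01 and 0.00. In these 3 lists no member reached even an unadjusted P below 0.05. Of 13 testable enzymes of the TCA cycle, Dlst, a subunit of the 2-oxoglutarate dehydrogenase complex, had 1.25 ± 0.48 (edgeR, adjusted P = 0.435), a description since its 38 untreated footprints lie below the mean of 10.

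Ptk7, a receptor-like pseudokinase of planar cell polarity and Wnt signalling, was the only nuclear gene called. Its footprints were 366, 349, 390 and 600 CPM in untreated and 126, 82.7, 168 and 197 CPM in treated cells, from 157 and 41 footprints in all. The groups did not overlap, and the estimates were −1.72 in progenitors and −1.50 in HFSCs. The change was −1.60 ± 0.35 (edgeR, adjusted P = 0.0413). Leaving out any of 5 libraries ended this call: either treated progenitor library, the untreated progenitors of mouse 2, the treated HFSCs of mouse 1 or the untreated HFSCs of mouse 2, with changes of −1.65 to −1.44. The call was also lost by DESeq2 (−1.61, adjusted P = 0.119), by limma voom (−1.56, adjusted P = 0.0526) and in the fit of 4 groups (edgeR, adjusted P = 0.0925). Nor was Ptk7 called by edgeR with a minimum mean of 1 (adjusted P = 0.0599), with none, after thinning or with counts summed over transcripts. Ptk7 RNA was 384 ± 25.1 CPM untreated and 374 ± 31.8 CPM treated (SD, n = 4 each; change −0.04 ± 0.07). It was also the only gene called in the footprint-to-RNA ratio (0.0443% of 2259), at −1.56 ± 0.25 (edgeR, adjusted P = 0.0159; 0.0766 with the mouse as a block). All of its 28-base coding words occurred only at the gene.

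Further genes with a small P in footprints fell into those with and without a matching RNA change, as the plot of the genes with the smallest P values shows. Among those higher in treated cells were 4 genes of the suprabasal epidermis, Krt1, Asprv1, Cdsn and Cnfn, whose RNA estimates had the same sign. With 23, 22, 34 and 32 footprints over the 4 untreated libraries, they reached the mean of 10 only through the treated group, so their values are a description. Krt1, the keratin of the spinous layer, had 163, 57.4, 78.1 and 40.0 CPM untreated and 440, 310, 244 and 109 CPM treated. Its change was 2.07 ± 0.48 in footprints (edgeR, adjusted P = 0.0548) and 1.65 ± 0.26 in RNA (adjusted P = 0.0112). The estimates for Asprv1, a protease that processes filaggrin, were 2.22 and 1.99, for Cdsn, the corneodesmosome protein, 1.94 and 1.85, and for Cnfn, a cornified envelope protein, 1.91 and 2.20, in footprints and RNA respectively. Asprv1 rested largely on 1 library, treated progenitors of mouse 1 with 739 CPM against 84.1 to 124 CPM in the other treated libraries.

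Gsta4, a glutathione transferase for lipid aldehydes, had the smallest P of the genes higher in treated cells. With 34 untreated and 78 treated footprints it too passed the mean of 10 only through the treated group. It had 81.3, 129, 0.0 and 50.0 CPM untreated and 503, 269, 210 and 175 CPM treated, without overlap, and changed by 1.97 ± 0.46 (edgeR, adjusted P = 0.0548), with 1.36 ± 0.18 in RNA (adjusted P = 0.00605). Fabp5, the epidermal fatty acid-binding protein, had 1.10 ± 0.27 in footprints (edgeR, adjusted P = 0.0820; 0.0282 with the mouse as a block) and 0.87 in RNA. Without mouse 1 and without mouse 2 the footprint changes were 0.62 and 1.74 for Fabp5, and 1.33 and 3.30 for Gsta4. Only 14.4% of the 28-base words of Fabp5 are its own, since copies lie elsewhere in the genome. S100a8 had 1.31 ± 0.37 in footprints and 1.05 ± 0.38 in RNA, and Ly6d 0.82 ± 0.23 and 0.31 ± 0.29. Neither was called in footprints (edgeR, adjusted P = 0.127 for both) or in RNA (adjusted P = 0.16 and 0.611). Larger estimates in footprints than in RNA were also found for Snrpe, a core spliceosomal protein (1.22 against 0.08) and Wdr77, a partner of the arginine methyltransferase PRMT5 (0.92 against 0.27). For Snrpe, only 16.3% of the words are its own.

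Krt15, the bulge keratin, was the next gene on the lower side. It had 366 and 727 CPM in untreated progenitors, 3020 and 2840 in untreated HFSCs, 378 and 269 in treated progenitors and 1220 and 1490 in treated HFSCs. The HFSC libraries separated by treatment, whereas in progenitors of mouse 1, with only 9 untreated footprints, treated and untreated values were close. Its change of −1.03 ± 0.24 in footprints (edgeR, adjusted P = 0.0548; 0.0196 with the mouse as a block) stood beside −0.99 ± 0.09 in RNA (adjusted P = 0.00247) and a ratio of −0.06.

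The other genes with the smallest P values on the lower side included Mmp13, a collagenase (−1.93), Timp2, an inhibitor of matrix metalloproteases (−1.93), Ddr1, a collagen receptor (−1.25), Afdn, an adherens junction adaptor (−1.14), and Acta2, smooth muscle actin (−1.85). Acta2 (137 untreated and 23 treated footprints), Mmp13 (147 and 38) and Timp2 (74 and 16) passed the mean of 10 only through the untreated group, so their values are a description. Mmp13 was 1020, 320, 1020 and 160 CPM untreated and 47.2, 331, 126 and 87.4 CPM treated, so the difference lay mainly in mouse 1, and without mouse 1 its change was −0.22. With the mouse as a block Mmp13 was called (edgeR, adjusted P = 0.0241), which it was not in the fit without the block (adjusted P = 0.0853). RNA estimates were −1.65 for Mmp13 and −1.13 for Acta2 but −0.38 for Timp2, −0.36 for Ddr1 and −0.26 for Afdn, of which only that of Acta2 was called (edgeR, adjusted P = 0.0414; 0.0622 with the mouse as a block). Hr, the hairless corepressor, had −1.24 ± 0.33 (edgeR, adjusted P = 0.121; 0.00478 with the mouse as a block) beside −0.35 in RNA. Without the untreated progenitor library of mouse 1, Hr was at −0.77. Hist1h4k, a histone H4 gene, had −1.45 against −0.15, but 11.6% of its words are its own, and its count is uncertain because H4 genes share sequence.

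**Figure D4:**
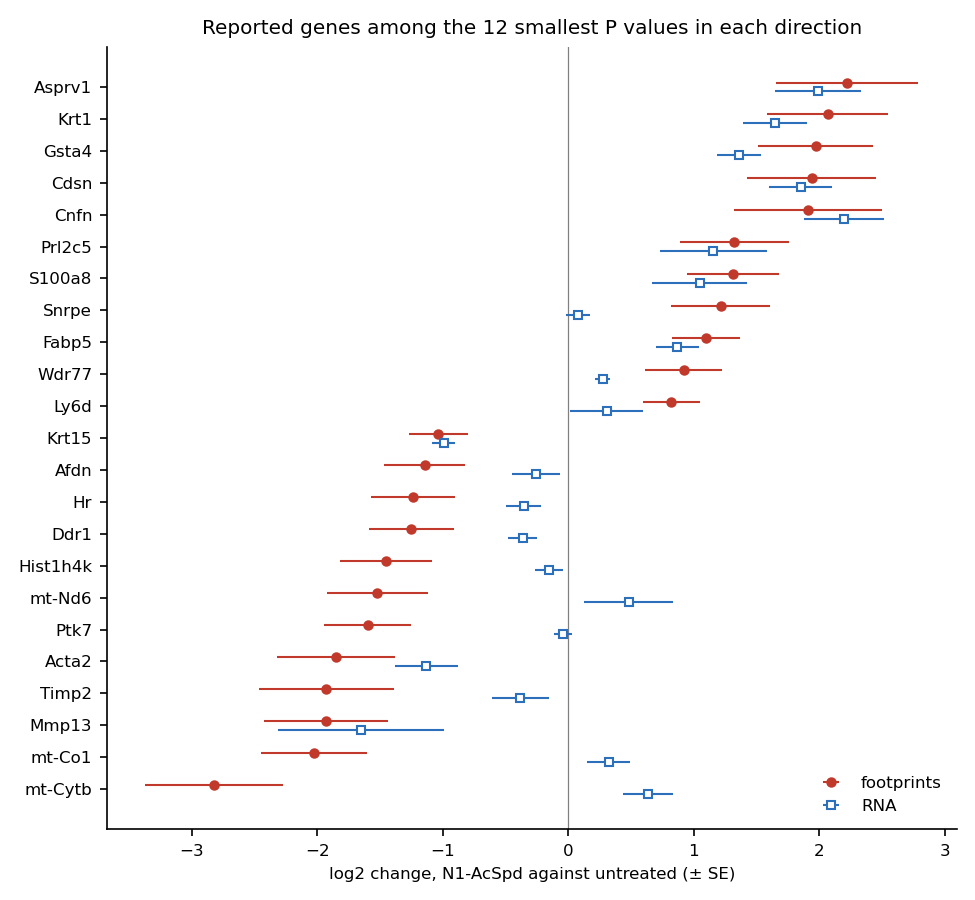
Log2 change upon N1-AcSpd (± SE) in footprints (filled circles) and in RNA (open squares) for the reported genes among the 12 with the smallest P values in each direction. The epidermal genes at the top and Krt15 have similar values in both assays, whereas mt-Cytb, mt-Co1 and mt-Nd6 are negative in footprints and positive in RNA.

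The late epidermal differentiation genes were followed as a list. Of 58 listed genes, 47 had a footprint and 13 were tested; 12 of these were higher, 8 with an unadjusted P below 0.05 (3.01% of all genes) and 0 called, and the median was 0.97. It was 0.64 with the mouse as a block and 0.40 without mouse 1. Only 9 of the 13 would have reached a mean of 10 in the untreated libraries alone, against 13 in the treated ones, so this count favours genes that are high in treated cells and is only a description. The filter does not enter the share of footprints on all 58 genes, which was 0.296%, 0.386%, 0.160% and 0.220% untreated and 0.841%, 0.548%, 0.325% and 0.267% treated. Within each cell type and mouse the treated library was the higher one, but the groups overlapped. In RNA, 28 of 53 tested members were called higher and 0 lower, compared with 2.49% and 1.55% of all genes. The list's median ratio was 0.03.

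Among lineage markers, all 6 tested genes had positive estimates, and Lypd3, a surface protein of suprabasal keratinocytes, was the only one with an unadjusted P below 0.05 (0.79 ± 0.33; edgeR, adjusted P = 0.554). Lgals7 (0.26), S100a14 (0.24), Krt6a (0.16) and Krt17 (0.05) did not differ beyond their spread, nor did S100a16 at 0.57 ± 0.42. Of 11 HFSC identity markers, 3 had enough footprints, and Sox9 (−0.23 ± 0.29) and Vdr (−0.41 ± 0.33) joined Krt15 with negative values. Both lists were named by the study. Of 7 tested keratins of basal and wound keratinocytes, 4 were higher and 3 lower (median 0.05, with 0.16 without mouse 1 and −0.04 without mouse 2). At an unadjusted P below 0.05, 2 were higher and 1 lower (3.01% and 4.07% of all genes). The higher ones were Krt16 (0.75 ± 0.26) and Krt6b (1.06 ± 0.47), keratins of wounded and suprabasal epidermis, but 43.5% and 31.3% of their words are unique.

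Cytosolic translation genes were described in 3 lists. Among 48 ribosome biogenesis genes, 34 had positive and 14 negative estimates (median 0.28), and 4 of them were higher at an unadjusted P below 0.05 (3.01% of all genes): Noc4l (1.26), Ddx27 (0.80), Ddx21 (0.69) and Npm1 (0.59), which process or export ribosomal precursors. Noc4l, with 38 untreated and 51 treated footprints, passed the mean of 10 only through the treated group, and only 12.2% of the words of Npm1 are its own. None was called. The share of footprints on all 72 listed genes was 1.11%, 1.22%, 1.12% and 1.06% in untreated and 1.43%, 1.38%, 1.34% and 1.45% in treated libraries, without overlap. Such a separation was found for 2 of the 28 lists, the other being the mitochondrial genes. In RNA, 27 of the 72 were called higher and 0 lower (2.49% and 1.55% of all genes), and the median of the tested genes was 0.26, so that the median ratio was 0.02.

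For cytosolic ribosomal proteins the signs of both assays differed. In footprints 16 of 21 estimates were positive (median 0.23), in RNA 16 of 21 were negative (median −0.06), and the median ratio was 0.33. In the ratio 4 members were above and 0 below at an unadjusted P under 0.05 (3.14% and 3.41% of all genes), and 0 were called. Rpl32 had 0.92 ± 0.38 and Rps18 0.67 ± 0.30 in footprints, but only 9.45% and 6.48% of their words are unique, and 30 of the 79 listed genes had no footprint at all. Among initiation and elongation factors, 24 of 36 were higher (median 0.15, and 0.05 without mouse 2). Eif2b1, a subunit of the exchange factor eIF2B, had 1.22 ± 0.49, Eef1b2, of the eEF1A exchange factor, 0.49 ± 0.23, and Eef2k, the kinase that inhibits eEF2, −1.16 ± 0.57. None of these passed adjustment (edgeR, adjusted P of 0.503, 0.669 and 0.698), and Eif2b1 (39 untreated footprints) and Eef2k (21 treated) reached the mean of 10 only through the group where they were high.

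Of 24 listed genes of the polyamine pathway and hypusination, 8 were tested, 4 higher and 4 lower, and 0 reached an unadjusted P below 0.05. Srm, spermidine synthase, had 0.62 ± 0.47, Mtap, which salvages the by-product of polyamine synthesis, 0.98 ± 0.50, Oat, ornithine aminotransferase, −0.29 ± 0.31, and Mat2a, which makes S-adenosylmethionine, 0.38 ± 0.38. Eif5a, the hypusinated factor, had 651 to 1540 CPM untreated and 699 to 908 CPM treated (−0.12 ± 0.25), and Dohh, deoxyhypusine hydroxylase, −0.37 ± 0.48. Dohh, with 62 untreated and 31 treated footprints, reached the mean of 10 only through the untreated group. In the transporters Slc3a2 (0.08) and Slc7a1 (−0.01) no difference was detectable at this depth. In RNA, 3 members of this list were called higher and 1 lower (2.49% and 1.55% of all genes), among them Mat2a at 0.77 (edgeR, adjusted P = 0.00247).

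Of the basement membrane and adhesion genes, 27 of 34 had negative estimates (median −0.25, and −0.11 without mouse 1). At an unadjusted P below 0.05 stood 4 of them (4.07% of all genes in this direction). These were Plec (−0.71 ± 0.26) and Col17a1 (−0.43 ± 0.18) of the hemidesmosome, Col7a1, the anchoring fibril collagen (−1.10 ± 0.42), and Flna, an actin crosslinker (−0.61 ± 0.22). Col7a1 was also called in RNA (−0.57; edgeR, adjusted P = 0.0111). None was called in footprints.

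In the lists on growth and stress, 0 genes were called. The cell cycle list had 26 of 55 higher (median −0.09; −0.18 with the mouse as a block, −0.26 without mouse 1 and 0.04 without mouse 2), and the cell division genes that the study chose on its own 3′ RNA-seq 11 of 17 higher (median 0.04, and −0.205 with the mouse as a block). Glycolysis had a median of −0.09, which was 0.02 without mouse 1 and −0.22 without mouse 2, and Slc2a1, the glucose transporter GLUT1, had −0.01 ± 0.20. For the proteasome the median was −0.01. Psmc5, an ATPase of its cap, had 0.81 ± 0.27 and Psmb3 −0.92 ± 0.42, the 1 higher and 1 lower member with an unadjusted P below 0.05. Of 31 genes of ER stress and secretory folding 27 were higher (median 0.23), but 0 had an unadjusted P below 0.05 and Hspa5, the main ER chaperone, stood at 0.00 ± 0.20. Heat shock proteins had 20 of 25 higher (median 0.09, and 0.38 without mouse 2), including Cct3 (0.47 ± 0.23) and Dnaja2 (0.66 ± 0.32). The ATF4 list had 12 of 18 higher (median 0.08, and −0.07 without mouse 2). The immediate early genes had 6 of 18 higher (median −0.16, with 0.02 without mouse 1 and −0.53 without mouse 2). Cebpb (−0.83 ± 0.39) in the ATF4 list and Jun (−0.91 ± 0.36) among the immediate early genes had an unadjusted P below 0.05. None of these was called, nor were Chmp4b (1.24), Cavin1 (−0.48), Ube2c (0.07), Tubb5 (0.10), Slirp (0.37), Mrpl17 (0.32) or Dync1h1 (−0.11), further list members named by rule. Chmp4b (33 untreated footprints) and Psmb3 (35 treated, with 14% of its words unique) lay below the mean of 10 in the group where they were low.

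**Figure D5:**
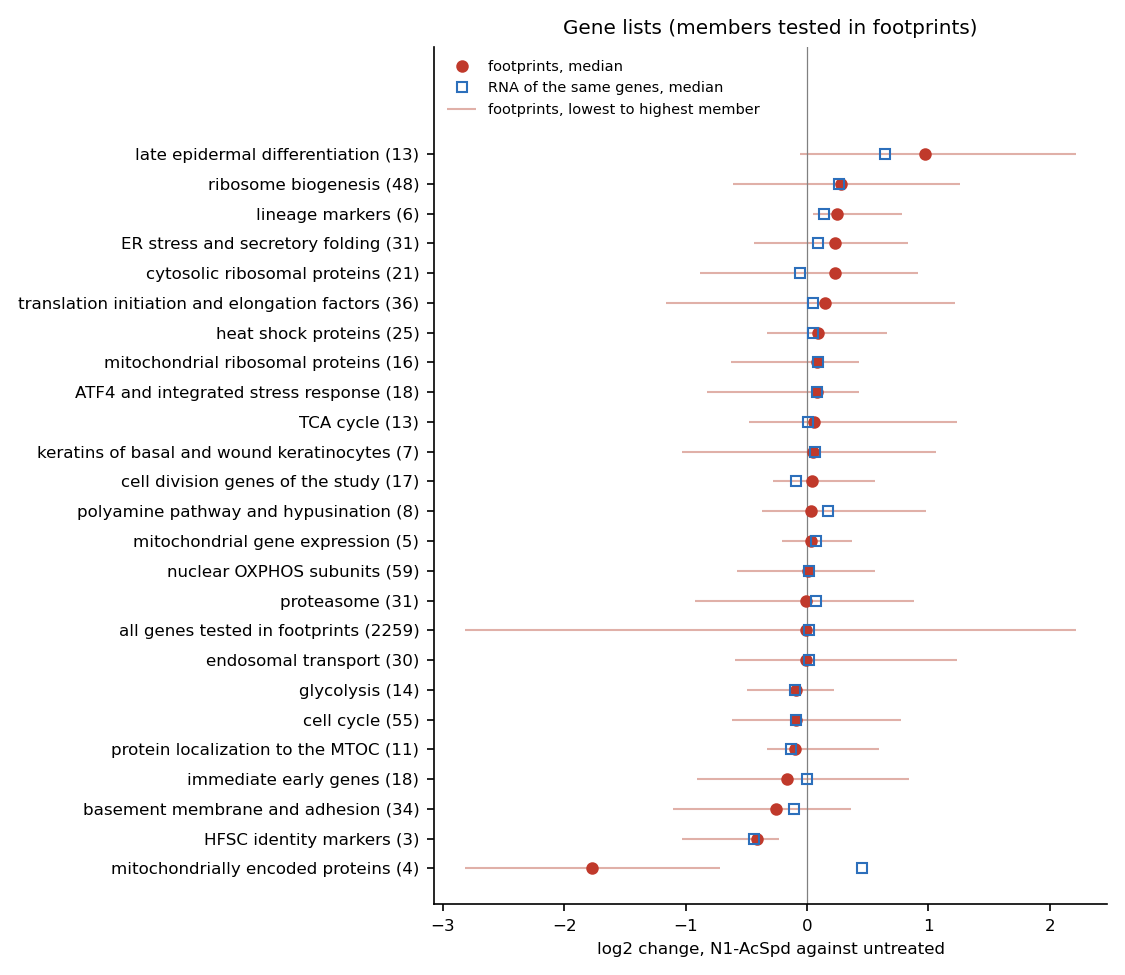
Median log2 change of each gene list with 3 or more tested members in footprints (filled circles) and in RNA for the same genes (open squares), with lines from the lowest to the highest footprint value and the number of tested members in brackets. The mitochondrially encoded genes lie at −1.77 in footprints and 0.45 in RNA, and the late epidermal differentiation genes at 0.97 and 0.65.

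Markers of other cell types were mostly absent. Immune, melanocyte and endothelial lists had 0 members with enough footprints, and Ptprc, Cdh5 and Tyr had none. Of 15 fibroblast markers, Col1a1, Dcn, Lum and Thy1 had 0 footprints, and only Postn was tested (−1.14 ± 0.38; −0.87 in RNA, edgeR, adjusted P = 0.016). In RNA, 10 of the 12 fibroblast markers tested had positive and 2 negative estimates (median 0.71), and Postn was the 1 called. The summed RNA of the 15 markers was 169 to 475 CPM untreated and 125 to 313 CPM treated, mostly Postn and Fbln1, and Lum was at 0. All libraries were made from cells sorted as α6+, and the part of fibroblasts in the lower Acta2, Mmp13 and Timp2 footprints was not tested.

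The pooled effect could be split by cell type. In progenitors 2 genes were called (0.0885%), mt-Cytb at −4.30 ± 0.85 and mt-Co1 at −3.09 ± 0.61 (edgeR, adjusted P = 0.0380 for both), and 95 genes had an unadjusted P below 0.05 (4.21%). In HFSCs edgeR called 0 genes, and 104 had an unadjusted P below 0.05 (4.6%). In untreated progenitors the library of mouse 1 stood apart in both genes, with 2970 against 268 CPM in mouse 2 for mt-Cytb and 3620 against 545 CPM for mt-Co1. The HFSC values were −1.70 ± 0.75 for mt-Cytb and −1.09 ± 0.58 for mt-Co1. The difference between the cell types was 2.61 for mt-Cytb (unadjusted P = 0.0368) and 2.00 for mt-Co1 (unadjusted P = 0.0262), and neither passed adjustment (edgeR, adjusted P = 0.999). No gene was called in the interaction of cell type and treatment with edgeR or DESeq2, and 39 genes (1.73%) had an unadjusted P below 0.05 with edgeR. The genes with the smallest P were Esd (2.21), Psma2 (1.97) and Jag1, a Notch ligand (1.41), with the more positive effect in HFSCs, and Txn2 (−2.35), Fkbp8 (−2.30) and Hist1h1d (−1.25) with the more positive effect in progenitors. A difference in response between the cell types was thus not detectable with 2 mice.

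The footprint-to-RNA ratio had 148 genes with an unadjusted P below 0.05 (6.55%). After Ptk7, the smallest P values among lower ratios were those of Frg1, a protein of RNA processing (−1.55 ± 0.34), and Hist1h4k (−1.35 ± 0.33). Higher ratios were led by Snrpe (1.26 ± 0.35), Acap2, a GTPase-activating protein for Arf6 (1.19 ± 0.33), and Eef1b2 (0.66 ± 0.19), with adjusted P values of 0.485 by edgeR. Frg1 footprints were 284, 258, 104 and 170 CPM untreated and 94.4, 41.4, 67.3 and 65.5 CPM treated, at an RNA change of 0.05. Frg1 (82 untreated and 19 treated footprints) and Acap2 (36 and 54) passed the mean of 10 only through the group where they were high, so these values are a description.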

How the data were processed

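Ribo-seq and RNA-seq libraries came from the same cycloheximide-treated lysates, and footprints were made with RNase I and S7 nuclease. The fragments were then purified and selected by size, and no isolation of ribosomes is described. The deposited values are whole-number counts per transcript. The authors made them with a pipeline that included flexbar, an rRNA and tRNA filter, and STAR. The submitters' processing notes name Bowtie 1.2.3, STAR 2.7.3a, featureCounts and GRCm38.p5. The counted region and the treatment of reads with several matches are not given in the sources used here. No molecular identifiers are described, so intervals cover counting error only.

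From these counts, the transcript with the most footprints was kept per gene. Genes averaging 10 or more footprints (RNA: counts) per library were fitted with cell type and treatment in edgeR 4.0.16 (R 4.3.3; TMM scaling, quasi-likelihood test, Benjamini-Hochberg adjustment, called below 0.05). The ratio was the interaction of assay and treatment, and the response of the cell types the interaction of cell type and treatment. Depth was 34467 to 267921 footprints per library, where 3 footprints correspond to 14.3 to 122 CPM. The fit was tested on simulated data. Shares were compared by exact permutation within cell type, with Wilson 95% intervals.

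By the labels, libraries with the same replicate number share a donor mouse, and the number was taken to pair the groups. Across genes, the mouse difference correlated by 0.024 to 0.113 between groups in footprints, and in RNA by 0.352 to 0.591 among 3 groups but −0.572 to −0.395 with treated HFSCs, which goes against the number in that group. Named are the called genes, the 12 smallest P values in each direction, the 13 mitochondrial genes, up to 4 members of each list with an unadjusted P below 0.05 (otherwise the one with the most footprints), the tested HFSC, lineage and polyamine genes, and the 3 smallest P values in each direction of the ratio and the interaction. A gene that this rule names is not reported here. Members and lists were chosen with earlier results of these data known. Alternatives were other scalings, count minimums, DESeq2 1.42.0, limma 3.58.1 (voom), the mouse as a block, a fit of 4 groups, counts summed over transcripts, thinning, and leaving out each library or mouse.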

Additional observations from a re-analysis of the deposited data

Results flagged for a closer look

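In 54 groups of 4 libraries, covering 25 genes and the mitochondrial shares, 7 had a library far from the others by Dixon's criterion. For 4 values from a single normal population, chance gives about 1 in 20. Each group here mixes both cell types and both mice, and many of the genes were picked by a small P, so that rate is no more than a guide. The untreated progenitors of mouse 1, the library with the fewest footprints, stood out in 3 of the 7: mt-Cytb with 2970 CPM (others 268 to 600), mt-Co1 with 3620 CPM (others 545 to 680) and the mitochondrial share with 0.653% (others 0.12% to 0.188%). These 3 are not separate events, since the share includes the counts of both genes. The untreated HFSCs of mouse 2 were high for Ptk7, with 600 CPM (others 349 to 390), and for Timp2, with 350 CPM (others 122 to 156). Asprv1 had 739 CPM in treated progenitors of mouse 1 (others 84.1 to 124), and Prl2c5 had 129 CPM in untreated progenitors of mouse 2 (others 78.1 to 81.3).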

How the results depend on the processing

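The count of 3 genes called in footprints was 0 with DESeq2, with counts summed over transcripts or with a minimum mean of 30, 1 after thinning to the smallest library, 6 with library totals and 10 with a minimum mean of 1. It ranged from 0 to 25 when libraries or mice were left out, with 25 without mouse 1 and 0 without mouse 2. With the mouse as a replicate block it was 8, including the same 3 genes, and limma voom called 3 others. The 495 RNA calls became 235 in the fit of 4 groups, 986 with DESeq2 and 8 to 343 with libraries or mice left out. With the mouse numbers of treated HFSCs crossed in the block, an alternative chosen after seeing the data, there were 1742 RNA calls.

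The 1 call in the ratio became 11 with DESeq2, 0 with a ratio per lysate, with a minimum mean of 1 or with the replicate block, and 0 to 2 with a mouse left out. The interaction of cell type and treatment had 0 calls with edgeR, DESeq2 and the block, with 39, 13 and 50 genes at an unadjusted P below 0.05; without a mouse it has no residual degrees of freedom and was not run. The difference in the mitochondrial share stayed negative, −0.303 to −0.0855 points with libraries or mice left out (exact permutation P from 0.0556 to 0.5), and with mouse pairs the exact test gave P = 0.125 for −0.21 points. The cause of these shifts was not tested. Without mouse 1, the medians of the basement membrane and HFSC identity lists were −0.11 and −0.20, and without mouse 2 those of the immediate early and heat shock lists were −0.53 and 0.38.

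Footprint changes of mt-Cytb, mt-Co1, mt-Nd6, mt-Nd5 and Ptk7 were negative in each alternative in which they could be fitted. mt-Cytb was called in 14 of 21, mt-Co1 in 12 of 22 and Ptk7 in 8 of 21. On simulated footprints with the depth and fitted spread of these libraries, 200 genes were changed 2-fold, and 25.5% of them were called. No cell type difference or separate mouse effect was simulated. The biological coefficient of variation was 25.2% in the footprint libraries and 13.4% in RNA. The part of depth alone was not tested.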
